A study of Mus musculus with 6 samples.

Results

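The G1 cyclins, cyclin-dependent kinases and kinase inhibitors described here are 10 genes of the mouse brain endothelial line bEND.3: the D-type cyclins Ccnd1, Ccnd2 and Ccnd3, the E-type cyclins Ccne1 and Ccne2, the kinases Cdk4 and Cdk6, and the inhibitors Cdkn1a, Cdkn1b and Cdkn2c. They were chosen by name from the 49315 genes of the count table, and all 10 were among the 18234 genes with enough counts to be tested. Cells of the knockdown group received a GapmeR against the long non-coding RNA Gm39822 at 100 nM, and cells of the control group received a negative control GapmeR at 100 nM, both delivered with a cationic lipid reagent. GapmeRs are short antisense oligonucleotides with a DNA centre, and RNase H cuts the RNA to which they are paired. RNA sequencing counts from 4 GapmeR and 2 negative control samples were compared. The cells are 1 immortalized line, and nothing in the labels says that samples came from separate cultures, so p-values measure only the spread between these samples, which may be technical.

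D-type cyclins bind CDK4 and CDK6 in response to growth signals, and the active kinases begin the phosphorylation of the retinoblastoma protein. E-type cyclins then activate CDK2, which completes that phosphorylation, releases E2F factors and carries the cell into S phase. Inhibitors of the CIP/KIP family (p21 from Cdkn1a and p27 from Cdkn1b) bind cyclin and kinase together, whereas inhibitors of the INK4 family (p18 from Cdkn2c) bind CDK4 and CDK6 and keep D-type cyclins away.

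Libraries held 30264086 to 37117934 counts after knockdown and 29261988 and 34266811 counts in the negative controls, and a level of 3 counts, taken as the floor, was 0.0771 to 0.110 CPM (counting error only). CPM here means counts scaled to the library total after TMM normalization. Knockdown left 1 to 4 counts of Gm39822 per GapmeR sample, against 56 and 61 per control (log2 fold change -4.82, standard error 0.41, edgeR adjusted p = 8.8e-08). Among 11 endothelial markers, Pecam1, Cdh5, Kdr, Cldn5 and Egfl7 each averaged 829 CPM or more in both groups. Pecam1, Cdh5 and Kdr were nonetheless lower after knockdown (log2 fold change -0.30, -0.51 and -0.33), Egfl7 was higher and Cldn5 did not pass. The largest changes among the 11 were a rise of Erg (log2 fold change 1.12, 289 against 133 CPM, edgeR adjusted p = 4.9e-09) and falls of Esam (-0.63) and Eng (-0.59). Other markers were less abundant, with Tek at 83.7 CPM after knockdown and 92.8 CPM in the controls, and Vwf at 6.22 and 5.23 CPM. The epithelial marker Epcam had no count in 5 samples and 1 count in GapmeR sample 4. In 5 of 7 macrophage markers (Ptprc, Csf1r, Adgre1, Lyz2 and Itgam) GapmeR samples 3 and 4 lay above all other samples, whereas Cd68 had 4173, 4398, 3878 and 3752 counts in the 4 GapmeR samples, and Cd14 was highest in negative control 2. The summed level of the 7 markers was 203 to 372 CPM after knockdown and 169 to 173 CPM in the controls. Csf1r, a receptor of macrophages, had 316, 288, 701 and 833 counts after knockdown against 201 and 218 without.

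The bases just before the transcription start are shown for the 3 genes that passed the test and had a promoter in the RefSeq table (Ccne1, Cdkn2c and Cdkn1b), and for Cdk4, which did not pass and held the most E-boxes. The 250 bases before the start are written 5′ to 3′ on the strand of the gene, from GRCm38.p6 (mm10). Capitals mark E2F cores (TTNNCGC, where each N is C or G), E-boxes (CACGTG) and GC boxes (GGGCGG), each on either strand. Ccne1 (chr7:38107491-38107740, minus strand) held GC boxes alone, and Cdkn2c (chr4:109666757-109667006, minus strand) held an E2F core beside GC boxes. Cdkn1b (chr6:134920151-134920400, plus strand) held 1 GC box, and Cdk4 (chr10:127063285-127063534, plus strand) held 4 E-boxes and 1 GC box. Another listed start of Cdkn2c is not shown, and the 250 bases before it (chr4:109665373-109665622) held none of these motifs.
Ccne1: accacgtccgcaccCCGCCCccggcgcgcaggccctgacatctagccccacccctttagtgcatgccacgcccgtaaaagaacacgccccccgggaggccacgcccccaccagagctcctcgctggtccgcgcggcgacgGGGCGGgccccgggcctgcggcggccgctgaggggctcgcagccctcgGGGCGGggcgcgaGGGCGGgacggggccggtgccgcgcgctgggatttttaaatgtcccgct
Cdkn2c: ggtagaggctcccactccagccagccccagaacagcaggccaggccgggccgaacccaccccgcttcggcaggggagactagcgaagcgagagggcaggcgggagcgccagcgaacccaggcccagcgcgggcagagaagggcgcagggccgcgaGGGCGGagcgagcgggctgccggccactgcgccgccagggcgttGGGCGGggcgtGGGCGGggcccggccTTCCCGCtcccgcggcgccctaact
Cdkn1b: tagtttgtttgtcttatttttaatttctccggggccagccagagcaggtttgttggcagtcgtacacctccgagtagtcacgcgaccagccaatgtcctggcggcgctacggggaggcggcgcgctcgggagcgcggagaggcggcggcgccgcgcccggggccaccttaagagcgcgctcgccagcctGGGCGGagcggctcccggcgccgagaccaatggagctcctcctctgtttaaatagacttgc
Cdk4: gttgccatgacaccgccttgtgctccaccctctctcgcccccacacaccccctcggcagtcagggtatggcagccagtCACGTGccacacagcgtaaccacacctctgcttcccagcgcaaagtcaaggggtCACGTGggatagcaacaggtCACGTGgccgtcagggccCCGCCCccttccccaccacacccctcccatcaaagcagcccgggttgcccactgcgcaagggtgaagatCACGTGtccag

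Windows of 250 bases before to 50 after the start were searched for 7 of the 10 genes (Ccnd3, Ccne1, Cdk4, Cdk6, Cdkn1a, Cdkn1b and Cdkn2c, 10 windows) and for all 27025 genes of the table (32851 windows). The E2F core was in 1 of the 7 genes and in 10.9% of all genes. It began 25 bases before the start of Cdkn2c shown above, and the window of the other Cdkn2c start held no core. With a further T before the core it was in none of the 7 and in 2.60% of all genes. Among 22 S-phase genes on a list of E2F targets, the core was in 15 and the longer form, which contains it, was in 11. E-boxes were in 3 of the 7 genes against 8.09% of all genes, and in 4 of the 22 S-phase genes and 0 of 10 mitotic genes. Those of Cdk4 began 172, 118, 98 and 11 bases before the start. The E-box of Cdkn2c began at position 35 after the start that is not shown. GC boxes were in 6 of the 7 genes against 38.2%, but also in 17 of the 22 S-phase genes and in 9 of 10 mitotic genes. CCAAT boxes (CCAAT, either strand, not capitalised above) were in 3 of the 7 against 41.1%, and in 16 of the 22 S-phase and 9 of the 10 mitotic genes. A match of letters is a description of the window and does not show that a factor binds there.

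After Gm39822 knockdown, both E-type cyclins and Cdkn2c were higher and Cdkn1b was lower than in the negative controls, whereas the 3 D-type cyclins, Cdk4, Cdk6 and Cdkn1a did not pass the test. Thus 3 of the 10 genes were higher at an adjusted p under 0.05 in edgeR's quasi-likelihood test, where 25.4% of all genes tested were higher, and 1 was lower, where 20.0% of all genes were lower. These shares lie near the background of all genes, so the count itself sets the 10 genes apart in neither direction. The median log2 fold change was -0.06 over the 10 genes and 0.03 over all genes tested. Scaling by library size alone moved the median of all genes to 0.17 and that of the 10 genes to 0.09, and it turned the split of all calls from 4625 higher and 3643 lower to 6106 higher and 2135 lower. The 2 groups did not overlap for 7 of the 10 genes, 4 of them higher and 3 lower after knockdown, where 59.2% of all genes were without overlap. With 15 ways to split the samples, the exact permutation test cannot give a p-value below 0.0667. In bulk RNA, a change in the share of cells that are cycling and a change in RNA per cell cannot be told apart.

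**Figure D1:**
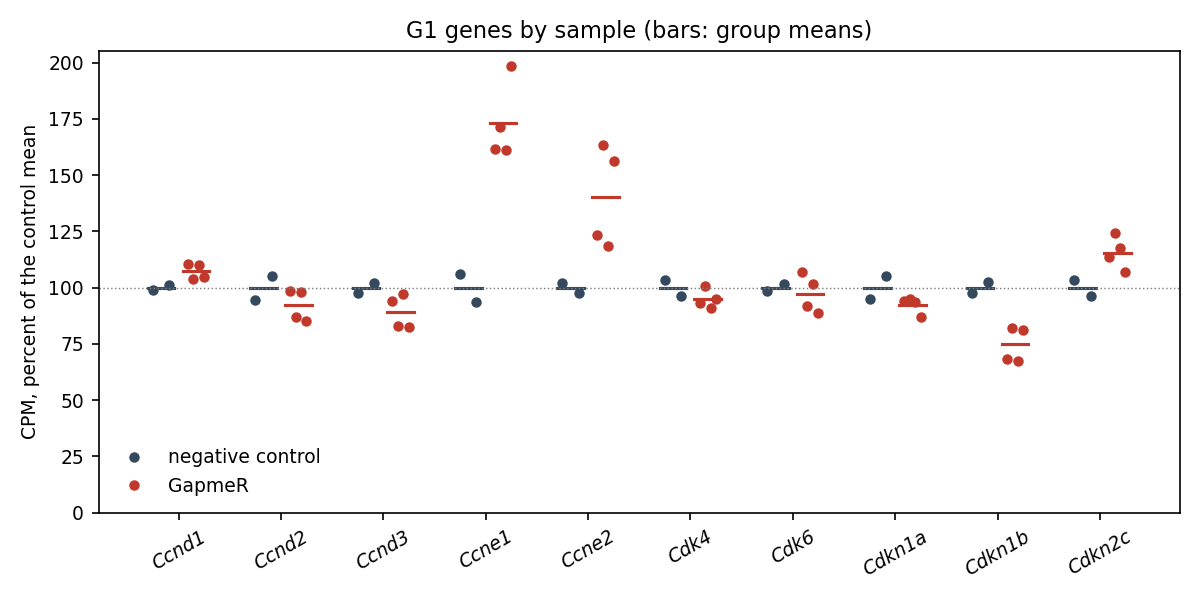
Each point is the CPM of 1 sample as a percentage of the mean of the negative controls (vertical axis), for the 10 genes along the horizontal axis, and bars are group means. The GapmeR samples of Ccne1 and Ccne2 lie above both controls and those of Cdkn1b below both, while points of Ccnd2, Cdk4 and Cdk6 overlap.

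The D-type cyclins, the growth-signal sensors of the family, were led by Ccnd1, a cyclin induced by mitogens (ENSMUSG00000070348, chromosome 7 from 144929931 to 144939831, mm10). Ccnd1 was measured at 2503, 2354, 2495 and 2374 CPM in GapmeR samples 1 to 4 and at 2237 and 2291 CPM in the controls. All 4 GapmeR samples lay above both controls, by little. The log2 fold change was 0.10 (standard error 0.08, 95% interval -0.06 to 0.27, adjusted p = 0.298 from edgeR), and the exact 2-sided permutation p was 0.133. Scaled by library size alone the value was 0.25 (adjusted p = 0.00997). On the opposite strand, Oraov1 covers 48.4% of the exon length of Ccnd1. Oraov1 was at 33.9 CPM on average in the GapmeR samples and 45.1 CPM in the controls (log2 fold change -0.41, adjusted p = 0.000659 from edgeR), far below Ccnd1 in counts. Whether reads of the 2 genes were separated by strand is not given in the sources used here.

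Ccnd2, which can replace Ccnd1 in many cell types (ENSMUSG00000000184, chromosome 6 from 127125162 to 127152188), stood at 550, 484, 547 and 476 CPM in GapmeR samples 1 to 4 and at 529 and 588 CPM in the controls. The groups overlapped, with GapmeR samples 2 and 4 the lowest of the 6 (log2 fold change -0.12, 95% interval -0.30 to 0.06, adjusted p = 0.273 from edgeR). With library size alone the value was 0.03. Ccnd3, the third D-type cyclin (ENSMUSG00000034165, chromosome 17 from 47505051 to 47599689), was at 105, 92.7, 109 and 92.6 CPM and at 109 and 114 CPM in the controls. All GapmeR values lay below both controls, and GapmeR sample 3 (108.6 CPM) was close to negative control 1 (109.5 CPM). Its log2 fold change was -0.17 (95% interval -0.34 to 0.00, adjusted p = 0.105 from edgeR), and with an offset in each sample for the GC content of exons (GC offset) it was -0.27 (adjusted p = 0.00485). A processed pseudogene of Ccnd3 is annotated, so its reads may be shared with that copy.

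Ccne1, the activating partner of CDK2 at the end of G1 (ENSMUSG00000002068, chromosome 7 from 38097984 to 38107490), changed the most of the 10 genes. It had 339, 413, 309 and 397 raw counts after knockdown, against 180 and 185 in the controls. These correspond to 10.0, 10.6, 9.96 and 12.3 CPM in GapmeR samples 1 to 4 and 6.57 and 5.80 CPM in the controls. Every GapmeR sample was above both controls, and GapmeR sample 4 was the highest. The GapmeR mean was 10.7 ± 1.09 CPM (SD, n = 4) against a control mean of 6.18 ± 0.547 CPM (SD, n = 2). Ccne1 rose by 0.80 on the log2 scale (standard error 0.13, edgeR adjusted p = 0.000113), or 1.74-fold with a 95% interval of 1.43 to 2.10. None of the other 9 genes passed with a change of at least 1.5-fold, and the exact permutation p of Ccne1 was 0.0667, the smallest possible. Ccne1 passed in all 15 alternatives of sample, scaling, filter and tool, with log2 fold changes from 0.72 to 0.94.

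Ccne2, the second E-type cyclin (ENSMUSG00000028212, chromosome 4 from 11190433 to 11204779), had the fewest counts of the 10 genes, with 221, 336, 194 and 267 after knockdown and 148 and 165 in the controls. Its level was 6.52, 8.63, 6.25 and 8.27 CPM after knockdown and 5.40 and 5.17 CPM in the controls. The GapmeR samples lay above both controls, with samples 2 and 4 well above samples 1 and 3. Ccne2 rose by 0.49 on the log2 scale (standard error 0.16, 95% interval 0.16 to 0.82, adjusted p = 0.0174 from edgeR), or 1.41-fold, and the exact permutation p was 0.133. Without negative control 1 or negative control 2 the change was 0.54 and 0.48, and the adjusted p-values were 0.0692 and 0.112. Exons of Ints8 on the opposite strand share 15.2% of the exon length of Ccne2, and Ints8 moved the other way (log2 fold change -0.44, adjusted p = 0.0023 from edgeR). The difference between the changes of Ccne1 and Ccne2 was not tested, and their 95% intervals overlap.

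The kinases that D-type cyclins activate did not pass the test. Cdk4 (ENSMUSG00000006728, chromosome 10 from 127063535 to 127067288) was at 433, 469, 422 and 441 CPM in the GapmeR samples and at 482 and 449 CPM in the controls. GapmeR sample 2 fell between the controls and the other 3 below both (log2 fold change -0.08, 95% interval -0.24 to 0.08, adjusted p = 0.432 from edgeR). Tspan31, which overlaps 18.8% of the exon length of Cdk4 on the opposite strand, was lower (log2 fold change -0.50, adjusted p = 2.14e-05 from edgeR). Cdk6, the related kinase (ENSMUSG00000040274, chromosome 5 from 3341004 to 3531008), was at 64.1, 54.9, 60.9 and 53.1 CPM and at 58.9 and 60.8 CPM in the controls, so the controls lay within the range of the GapmeR samples. Its log2 fold change was -0.04 (95% interval -0.21 to 0.14, adjusted p = 0.725 from edgeR), and its sign was positive in 7 of 15 alternatives. The 95% intervals leave room for changes of up to 0.24 on the log2 scale in Cdk4 and 0.21 in Cdk6 downward.

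The inhibitors moved in different directions. Cdkn1a, the p53-induced inhibitor p21 (ENSMUSG00000023067, chromosome 17 from 29090979 to 29100722), stood at 580, 584, 576 and 536 CPM in GapmeR samples 1 to 4 and at 586 and 647 CPM in the controls. All GapmeR samples were below both controls, and samples 1 to 3 were close to negative control 1. The log2 fold change was -0.12 (standard error 0.08, 95% interval -0.28 to 0.05, adjusted p = 0.236 from edgeR). Library size alone gave 0.03, and the GC offset gave -0.19 (adjusted p = 0.0434).

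Cdkn1b, which encodes p27, the inhibitor of cyclin E with CDK2 (ENSMUSG00000003031, chromosome 6 from 134920401 to 134925525), was at 31.0, 37.4, 30.7 and 37.1 CPM after knockdown and at 44.4 and 46.7 CPM in the controls. Every GapmeR sample was below both controls, in pairs of samples 1 and 3 and samples 2 and 4. The GapmeR mean was 34.1 ± 3.68 CPM (SD, n = 4) against a control mean of 45.6 ± 1.62 CPM (SD, n = 2). Cdkn1b fell by 0.42 on the log2 scale (standard error 0.09, 95% interval -0.61 to -0.23, edgeR adjusted p = 0.00147), to 0.748 of the control level. The exact permutation p was 0.0667. Cdkn1b passed in all 15 alternatives, with log2 fold changes from -0.47 to -0.27 and adjusted p-values of at most 0.0451.

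Cdkn2c, the INK4 inhibitor p18 (ENSMUSG00000028551, chromosome 4 from 109660876 to 109666756), was at 37.4, 40.8, 38.7 and 35.3 CPM in the GapmeR samples and at 34.1 and 31.7 CPM in the controls. All 4 GapmeR samples lay above both controls, GapmeR sample 4 by the least. Cdkn2c rose by 0.21 on the log2 scale (standard error 0.08, 95% interval 0.04 to 0.38, adjusted p = 0.0469 from edgeR), or 1.16-fold. The adjusted p was above 0.05 in 7 of 15 alternatives and reached 0.252 without negative control 2. The 3 higher and 1 lower calls were also found without GapmeR samples 3 and 4 together, an alternative chosen after the data were seen. Ccne1 was then at 0.76, Ccne2 at 0.55, Cdkn2c at 0.27 and Cdkn1b at -0.39. The part of the macrophage markers, of which 5 were high in those samples, was not tested.

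**Figure D2:**
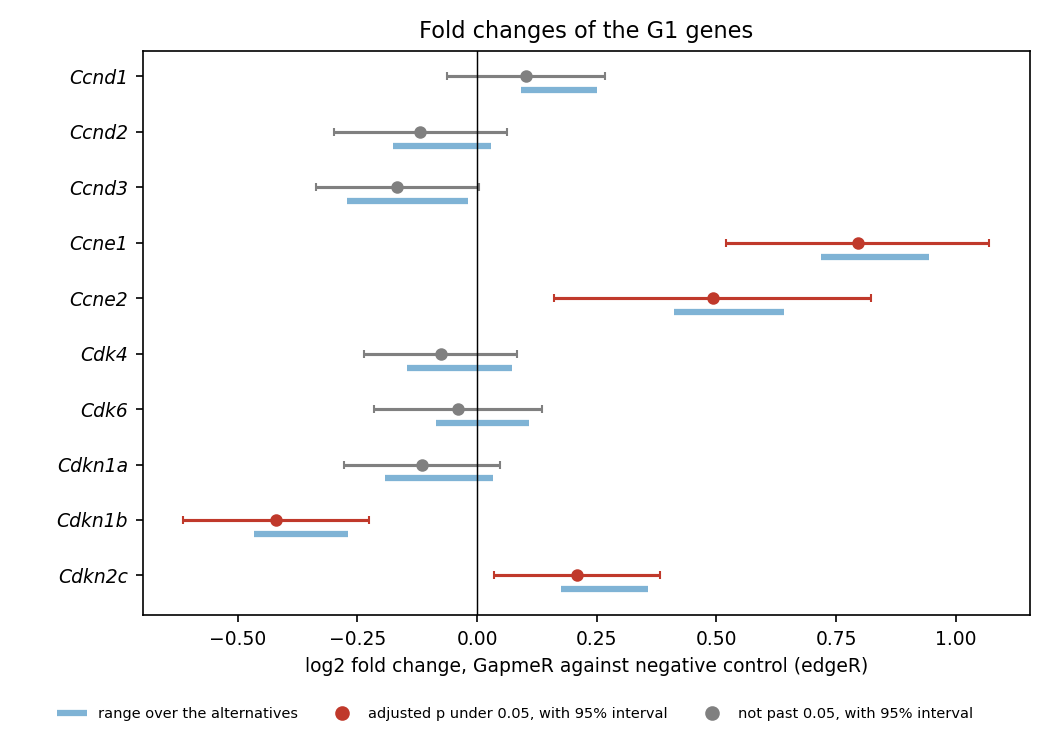
Points are edgeR log2 fold changes of GapmeR against negative control (horizontal axis) with 95% intervals for the 10 genes, red where the adjusted p was under 0.05, and blue bars span the values under 15 alternatives. The bars of Ccne1, Ccne2, Cdkn2c and Cdkn1b stay on 1 side of 0, as do those of Ccnd1 and Ccnd3, while the bars of Ccnd2, Cdk4, Cdk6 and Cdkn1a cross it.

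Levels were compared between genes only as CPM per kb of exon (the union of annotated exons, GRCm39). In the controls the order was Ccnd1 at 473 CPM per kb, Cdk4 at 135, Cdkn1a at 102, Ccnd2 at 59.4, Ccnd3 at 12.1, Cdkn1b at 10.0, Cdkn2c at 5.18, Cdk6 at 4.15, Ccne1 at 1.71 and Ccne2 at 0.941. The order of the GapmeR means was the same, from 508 CPM per kb for Ccnd1 to 1.32 for Ccne2, and neighbours in the order did not overlap in either group. Ccnd1 was above 99.8% of the genes tested by this measure, and Ccne2 above 44.4%. The 2 genes with the lowest levels were thus those with the highest fold changes. With the longest transcript as length, the order in the controls was the same. Exon parts shared with genes of the opposite strand, largest in Ccnd1, Cdk4 and Ccne2, were kept in these lengths. As the strand setting of the counting is not given, their effect on levels and shares was not tested.

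**Figure D3:**
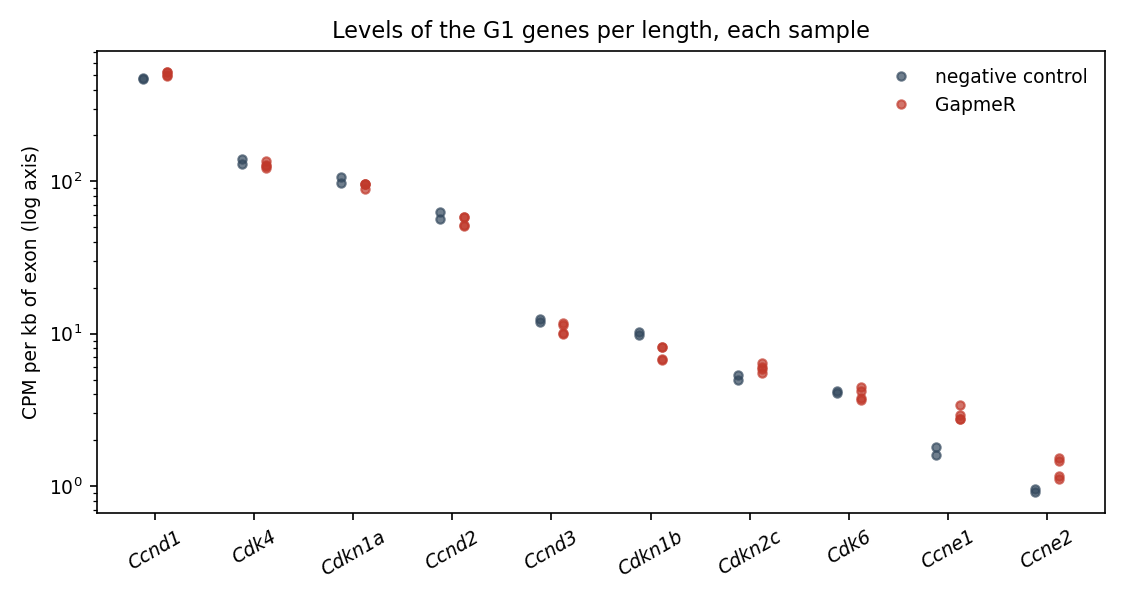
Each point is 1 sample's CPM per kb of exon on a log axis, with genes ordered by their control mean. Ccnd1 stands at the top in both groups, and the E-type cyclins at the bottom are the genes whose GapmeR points rise most above the controls.

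The make-up of each class was described from the same levels, with no test. Shares within a class depend on each other, and 59.2% of all single genes tested were without overlap between the groups. Ccnd1 made up 88.6 ± 0.473% (SD, n = 4) of the summed D-type cyclins after knockdown and 86.9 ± 0.574% (SD, n = 2) in the controls. Ccnd2 made up 9.52% and 10.9%, and Ccnd3 1.88% and 2.22%, and for each of the 3 shares the groups did not overlap. None of these 3 genes passed the test by itself, and the levels of Ccnd2 overlapped. Ccne1 made up 69.2 ± 2.5% (SD, n = 4) of the summed E-type cyclins after knockdown and 64.4 ± 1.32% (SD, n = 2) in the controls, again without overlap, although GapmeR sample 2 (65.6%) was close to negative control 1 (65.3%). Cdk4 held 96.9% and 97.0% of Cdk4 and Cdk6, with overlapping groups. Of the 3 inhibitors, Cdkn1a held 87.5% and 87.0%, Cdkn1b 6.96% and 8.55%, and Cdkn2c 5.56% and 4.44%, and the groups did not overlap for Cdkn1b and Cdkn2c.

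Summed E-type cyclins were 3.92, 4.46, 3.86 and 4.86 CPM per kb after knockdown and 2.77 and 2.52 CPM per kb in the controls. Summed D-type cyclins were 593, 554, 592 and 557 CPM per kb after knockdown and 536 and 554 in the controls, so these groups overlapped. The ratio of D-type to E-type cyclins was 151, 124, 153 and 115 after knockdown and 193 and 220 in the controls. It was lower in every GapmeR sample than in either control, with means of 136 ± 19.4 (SD, n = 4) and 207 ± 19.0 (SD, n = 2). The 3 inhibitors summed to 108 ± 3.77 CPM per kb (SD, n = 4) and 117 ± 7.27 (SD, n = 2), without overlap, as for 59.2% of all single genes. The ratio of D-type cyclins to inhibitors was 5.34 ± 0.242 and 4.66 ± 0.179. Cdk4 and Cdk6 together overlapped between groups at 132 ± 5.63 and 139 ± 6.74 CPM per kb.

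**Figure D4:**
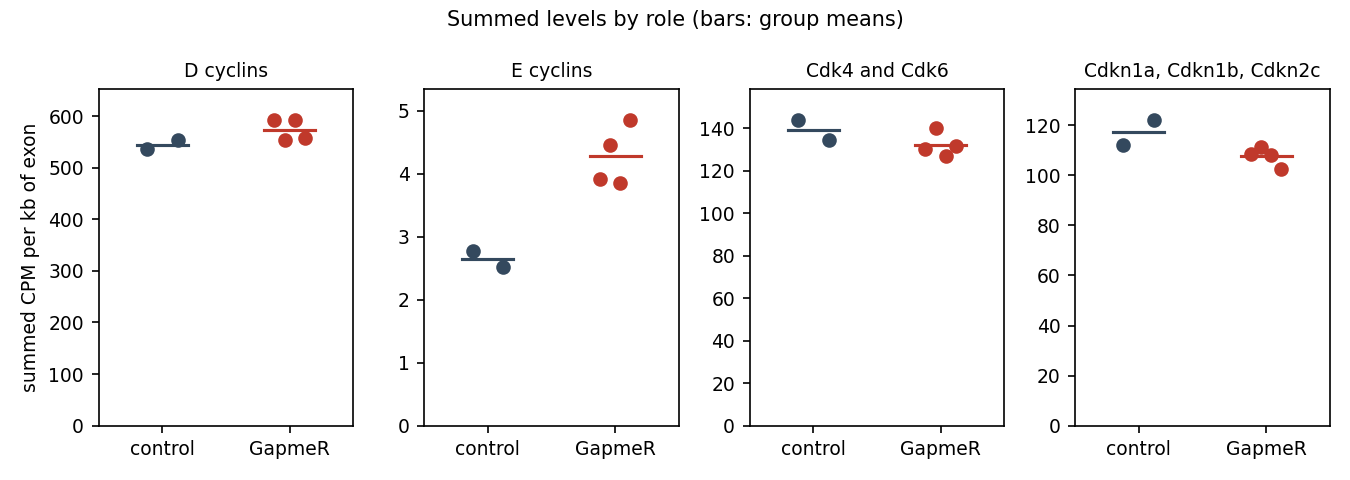
Points are samples and bars are group means of the summed CPM per kb of exon in 4 classes, each on its own axis from 0. E-type cyclins are higher in all 4 GapmeR samples, the 3 inhibitors are slightly lower, and the other 2 classes overlap.

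The other genes of the G1 network were read from 5 lists grouped by function, 33 genes in all, of which 10 were higher, 6 were lower and 17 did not pass (median log2 fold change 0.00). These counts lie near the shares over all genes tested, of which 25.4% were higher and 20.0% lower. Cdk2, the kinase of the E-type cyclins, rose by 0.29 on the log2 scale (edgeR adjusted p = 0.0279) and was at 41.7 ± 4.99 CPM (SD, n = 4) against 34.2 ± 1.32 CPM (SD, n = 2). That call was lost without GapmeR sample 4, negative control 1 or negative control 2, and the lowest value over the alternatives was 0.23. Ccna2, the cyclin that follows cyclin E on CDK2, rose by 0.56 (adjusted p = 7.5e-05 from edgeR). Of the CDK-activating kinase, Mnat1 fell by 0.53 on the log2 scale (adjusted p = 0.000179 from edgeR), while Cdk7 at -0.20 and Ccnh at -0.02 did not pass. Of 4 other CDK inhibitors, Cdkn2b, which encodes the INK4 inhibitor p15, fell by 0.55 on the log2 scale (edgeR adjusted p = 3.68e-05), with 65.3 ± 5.69 CPM (SD, n = 4) after knockdown against 95.8 ± 3.24 CPM (SD, n = 2). The values of Cdkn2a at -0.08, Cdkn1c at 0.19 and Cdkn2d at 0.05 did not pass.

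All 3 pocket proteins, the repressors that the cyclin kinases phosphorylate, passed. Rb1 rose by 0.65 on the log2 scale (10.5 against 6.70 CPM, adjusted p = 0.000342 from edgeR) and Rbl2 by 0.59 (adjusted p = 0.00212), whereas Rbl1 fell by 0.25 (adjusted p = 0.0183). Rb1 and Rbl2 passed in all 15 alternatives, but Rbl1 in 6, and with library size alone it was at -0.10. Of 10 E2F and DP factors, 4 were higher, 1 was lower and 5 did not pass, with a median of 0.23, beside 25.4% higher and 20.0% lower over all genes. E2f2, an activator E2F, had 35, 54, 30 and 49 counts after knockdown against 10 and 16 without, and it rose by 1.48 (standard error 0.34, edgeR adjusted p = 0.00209). Tfdp1, the main dimer partner of E2F factors, rose by 0.61, the repressor E2f7 by 0.49 and the repressor E2f8 by 0.33, though for E2f8 the groups overlapped. The call of E2f7 was lost without negative control 2, and that of E2f8 in 5 alternatives, among them the fits without GapmeR sample 1, GapmeR sample 4 or negative control 2. E2f5 fell by 0.39 on the log2 scale, a call lost with library size alone (-0.24) and without either control. E2f1 at -0.06, E2f3 at -0.11, E2f4 at 0.00, E2f6 at 0.14 and Tfdp2 at 0.32 did not pass.

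Of 11 genes for the turnover and activation of G1 regulators, 2 were higher and 2 were lower (median -0.06), which is no more than the 25.4% and 20.0% of all genes called in those directions. Skp2, the F-box protein that targets p27 for degradation, rose by 0.57 on the log2 scale (8.83 ± 2.04 CPM, SD, n = 4, against 5.97 ± 0.238 CPM, SD, n = 2, adjusted p = 0.0235 from edgeR), and its cofactor Cks1b rose by 0.34 (adjusted p = 0.0107). Skp2 did not pass without GapmeR sample 4, negative control 1 or negative control 2 (lowest value over the alternatives 0.45), nor Cks1b without negative control 2. Gsk3b, a kinase that marks cyclin D1 for degradation, fell by 0.51 on the log2 scale (adjusted p = 1.23e-05 from edgeR), and the transcription factor Myc fell by 0.43 (adjusted p = 0.000605).

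Genes that act after G1 moved mostly upward. Of 26 S-phase genes known as E2F targets, 19 were higher, 1 was lower and 6 did not pass, with a median log2 fold change of 0.38 against 0.03 for all genes, of which 25.4% were higher. The replication initiation factors Mcm10 and Cdc6 rose by 1.07 and 1.06 on the log2 scale, and Rrm2, a subunit of ribonucleotide reductase, rose by 0.81. These 3 genes passed in all 15 alternatives. All 12 mitotic genes were higher, with a median of 0.58. Of the 12, 11 passed in all 15 alternatives, the exception being Ccnb1 without negative control 2. Among them Ccnb2, a mitotic cyclin, rose by 0.91, Birc5 by 0.69, the proliferation marker Mki67 by 0.68 and the kinase Plk1 by 0.66. These are RNA levels. The paper measured proliferation of bEND.3 cells by BrdU incorporation and reported that Gm39822 knockdown lowered it, the other direction. The reason for that difference was not tested.

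Cdkn1a is also a target of p53, and 21 of 22 other p53 targets could be tested (Perp had too few counts). Of these 4 were higher, 2 were lower and 15 did not pass, with a median of 0.07, and neither count exceeds the share of all genes (25.4% higher, 20.0% lower). The higher genes were Ercc5 (1.14), Mdm2, the ubiquitin ligase of p53 (0.64), Sesn1 (0.60) and Zmat3 (0.45), each as a log2 fold change, and Sesn1 lost its call without negative control 2. The lower genes, Trp53inp1 (-0.31) and Eda2r (-0.26), passed in 12 and 10 of 15 alternatives, and neither passed with library size alone. Trp53 itself was at 192 ± 19.2 CPM (SD, n = 4) and 186 ± 11.1 CPM (SD, n = 2) and did not pass.

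**Figure D5:**
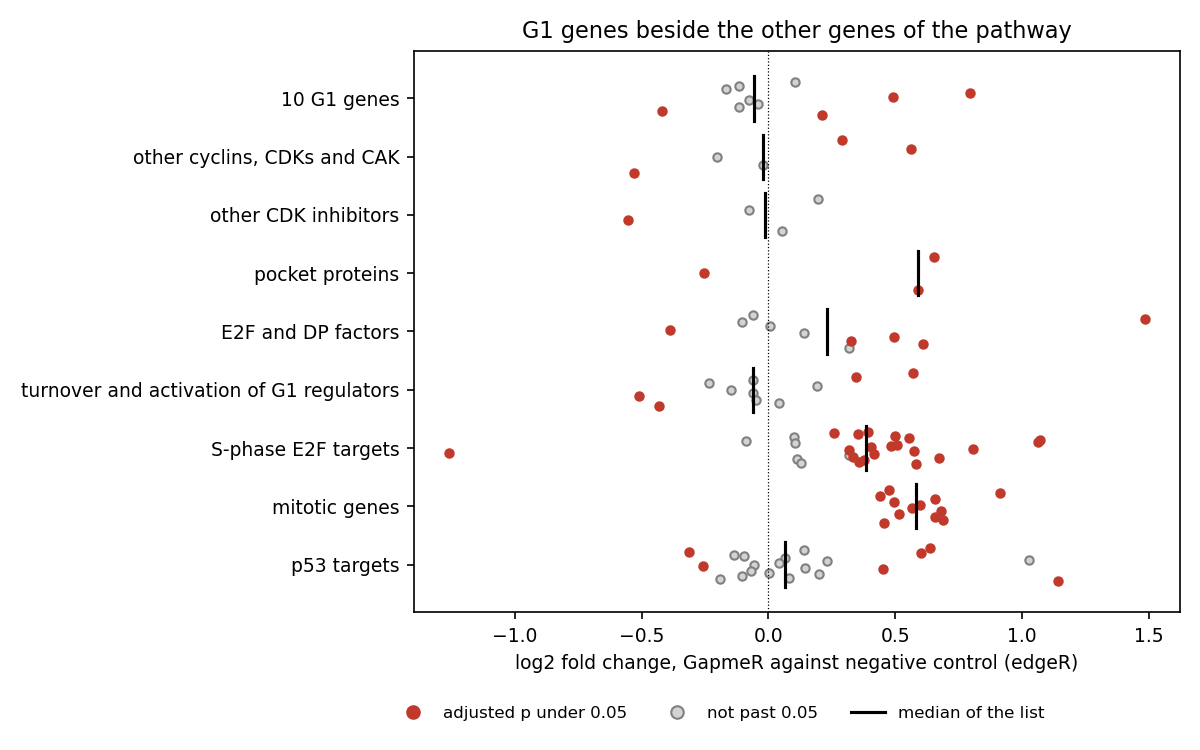
Each point is the edgeR log2 fold change of 1 gene (horizontal axis) for the 10 G1 genes and 8 lists, red where the adjusted p was under 0.05, and vertical bars are medians. The S-phase and mitotic lists lie mostly above 0, with 1 red point below, while the 10 G1 genes spread on both sides.

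Markers of cell types were read in the same way, beside 25.4% of all genes higher and 20.0% lower. Of 11 endothelial markers, 2 were higher and 5 were lower, and their summed level was 8966 to 10276 CPM in the GapmeR samples and 10591 to 11016 CPM in the controls. Of 7 macrophage markers only Cd68 passed (0.43 higher on the log2 scale), and of 8 mural and fibroblast markers none passed, although their sum was 16.3 to 78.0 CPM after knockdown and 15.7 to 16.9 CPM in the controls. The highest of these sums was in GapmeR sample 3, with 1179 counts of Col1a1, a gene named after its values were seen. Of 5 epithelial markers, 3 were tested and 2 were higher, at sums of 1.08 to 1.33 CPM against 0.402 to 0.658 CPM. The 2 higher genes lay under the floor of 3 counts in both controls, with 1 and 2 counts of Krt8 and 2 and 2 of Cldn4. The part of these cell type markers in the changes of the G1 genes was not tested.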

How the data were processed

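Ribosomal RNA was removed from bEND.3 RNA before paired-end sequencing. The authors trimmed the reads, aligned them with STAR to mm10 and deposited raw counts for each Ensembl gene. The submitters' processing notes name Trimmomatic 0.36, STAR 2.5.2b and Subread 1.5.2. The strand setting is not given in the sources used here. Samples were grouped by their labels, and 1 further column of per-sample counts, named like the controls' columns but matched to no sample label used here, was not used. The control group therefore holds 2 samples, fewer than the study states, and several calls were lost when 1 of them was left out.

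The 18234 of 49315 genes that reached 5 counts in 2 or more samples were TMM-normalized and tested with edgeR 4.0.16 (robust quasi-likelihood test, R 4.3.3), with Benjamini-Hochberg adjustment over all of them, after the functions had been tested on simulated data. The biological coefficient of variation was 8.42%. Single genes were also tested by exact 2-sided permutation of log2 CPM with a prior count of 2. The 10 genes and the lists were chosen with earlier results of these data known. All 10 genes are named. Of the lists for other cyclins and kinases, other inhibitors, pocket proteins and E2F factors every gene is named, and of the other lists up to 4 called genes with the largest change at 1 CPM or more. The values of 1 listed gene are not reported here, though it is included in the counts and medians. The motifs, the promoters shown, the order of levels and the overlapping genes were chosen after the values had been seen. Trp53, Trp53inp1, Eda2r, Perp, Ccnb1 and the markers named singly fall outside the rule. Exon lengths, GC content and overlaps came from GENCODE on GRCm39 by Ensembl identifier, and coordinates and promoters from RefSeq on GRCm38.p6. No replicates of a group agreed within sampling noise (chi-square per degree of freedom 5.41 to 25.2). Alternatives used DESeq2 1.42.0, limma 3.58.1 (voom), other scaling, 2 other filters, a GC offset (loess, span 0.3), a 1.5-fold threshold, a replicate block and each sample left out in turn.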

Additional observations from a re-analysis of the deposited data

Results flagged for a closer look

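Among the 4 GapmeR samples, sample 4 was far from the others in Cdkn1a, at 535.9 CPM against 576 to 584 CPM. Its gap to the nearest sample, divided by the range of log2 CPM, was 0.842, above the 95% critical value of Dixon's test for 4 samples. Chance flags about 1 in 20 groups, and 10 genes were examined. Without GapmeR sample 4 the adjusted p of Cdkn1a stayed above 0.05.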

How the results depend on the processing

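Ccne1 and Cdkn1b kept their direction and passed in all 15 alternatives, while Ccne2 lost the call without either control and Cdkn2c in 7 alternatives. Of the 10 genes, 1 to 3 were higher when 1 sample was left out (1 without negative control 1 or negative control 2), 1 was lower in each of these, and their median was -0.08 to -0.01. At 1.5-fold, a threshold not among the 15 alternatives, 1 of the 10 was higher and 0 were lower, so Cdkn1b did not pass. With the GC offset 3 were lower, by the addition of Ccnd3 and Cdkn1a. Over all genes, 8268 calls became 5232 to 8719 when 1 sample was left out (5232 without negative control 2) and 4628 at 1.5-fold, and 3643 lower calls became 1930 to 3949 (2262 and 1930 without negative control 1 and 2), 1390 at 1.5-fold and 2135 with library size alone. Fewer samples leave fewer degrees of freedom in these fits, where the lone control is assumed to vary like the GapmeR samples.

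Scaling by library size alone reversed the median of the 10 genes (0.0900) and the signs of Ccnd2 (0.0292), Cdk4 (0.0722), Cdk6 (0.11) and Cdkn1a (0.0332), none of which passed. It also reversed the medians of the other cyclins and kinases (0.13), the other inhibitors (0.14) and the turnover genes (0.0884), and it left 5 of 9 lower calls on the lists. Cdk6 was positive with at least 10 counts in every sample (0.0073) and with the GC offset (0.0353), and it ranged from -0.0866 to 0.0054 when 1 sample was left out, positive without GapmeR sample 4 (0.0051) or negative control 2 (0.0054). It was also positive without GapmeR samples 3 and 4 together (0.013), an alternative chosen after seeing the data. The causes were not tested.

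Same-numbered samples correlated at -0.06 and 0.12 in their deviations from the group means, so the numbers were not taken to pair the samples. With the replicate block, which rests on 4 samples and 1 residual degree of freedom, 7798 genes were called, 3 of the 10 were higher and 1 was lower, Ccne1 was at 0.76 and Cdkn1b at -0.40, Cdk6 was at 0.0073, and the medians of the other cyclins and kinases and of the other inhibitors were 0.12 and 0.0777.

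With the longest transcript as length, shares after knockdown and in the controls were 85.5% and 83.3% for Ccnd1, 11.0% and 12.5% for Ccnd2, 3.51% and 4.13% for Ccnd3, 78.4% and 74.5% for Ccne1, 97.7% and 97.8% for Cdk4, 90.2% and 90.1% for Cdkn1a, 4.87% and 6.01% for Cdkn1b and 4.90% and 3.93% for Cdkn2c, in the same direction between groups as before. No depth limit was reached by the 10 genes, all of which had 148 counts or more in every sample.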
